A study of Drosophila melanogaster with 12 samples.

Results

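DNA replication and nucleotide supply genes were taken as 42 symbols, from origin recognition to the enzymes that make and clean the deoxynucleotide pool, and 37 of them had a row among the 13281 genes of the authors' deposited table. The symbols lat, DNApol-alpha60, RPA2, DNA-ligI and Sld5 were not analysed here. Total RNA of eye discs from larvae in the third instar was hybridised to 12 Affymetrix arrays, 3 biological replicates for each of 4 genotypes. The genotypes were GMR-Gal4/+; UAS-dE2F1,UAS-dDP/+ (dE2F1/dDP), GMR-Gal4/UAS-miR-11 with UAS-dE2F1,UAS-dDP/+ (dE2F1/dDP plus miR-11), GMR-Gal4/UAS-miR-11 (miR-11), and GMR-Gal4/+ (the driver control), all kept at 25 °C. All animals thus carried the driver GMR-Gal4, which acts behind the morphogenetic furrow, whereas the RNA came from discs that also hold cells ahead of it. In such bulk samples, fewer cells of a type and less RNA per cell cannot be told apart.

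A replication origin is first bound by the origin recognition complex, ORC, which loads the MCM helicase with the help of Cdt1. Further factors then activate the helicase, the polymerases copy the strands, a sliding clamp keeps them on the template, and chromatin is rebuilt behind the fork with new histones. dE2F1 and its partner dDP form a transcription factor with binding sites at many such genes in Drosophila, among them those of the clamp PCNA and of ribonucleotide reductase. In the eye disc, cells arrest in G1 within the furrow and a group of them then enters S phase together just behind it, in the second mitotic wave. miR-11 is a microRNA encoded within the dE2F1 gene.

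Most replication genes stood above the driver control in both genotypes with dE2F1/dDP and below it with miR-11 alone. None of the 37 was called in any of the 3 comparisons. A call here is a pfp, the authors' estimated proportion of false positives, under 0.05 in the direction of the change. In the authors' deposited table, 31 of 37 genes had a log2 fold change above 0 with dE2F1/dDP, beside 42.9% of all genes, and the median was 0.28 against -0.03 over all genes. With dE2F1/dDP plus miR-11, the authors' deposited table had 31 of 37 above 0, beside 44.1% of all genes, with a median of 0.28 against -0.03. With miR-11 alone, 2 of 37 were above 0 in the authors' deposited table, beside 43% of all genes, with a median of -0.14 against -0.03. The same 31 genes were above 0 in both genotypes with dE2F1/dDP. The share of all genes above 0 in both was not counted, and the 3 comparisons share the driver control, so this overlap is a description only.

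For these genes there was no call in either direction. Over all genes of the authors' deposited table, 0.136% were called higher and 0.211% lower with dE2F1/dDP, 0.233% and 0.617% with dE2F1/dDP plus miR-11, and 0.309% and 0.143% with miR-11. At an unadjusted p under 0.05, the authors' deposited table listed 9 of 37 above the control and 1 below it with dE2F1/dDP, beside 6.03% and 6.85% of all genes. With dE2F1/dDP plus miR-11 14 were above and 1 below in the authors' deposited table, beside 7.4% and 7.08%. With miR-11 0 were above and 1 below in the authors' deposited table, beside 3.52% and 3.41%. At a pfp under 0.2, the authors' deposited table had 1 of 37 higher with dE2F1/dDP, beside 0.248% of all genes, and 1 of 37 with dE2F1/dDP plus miR-11, beside 0.73%, which was Mcm10 in both. The lowest pfp of any replication gene was 0.143 with dE2F1/dDP, 0.0622 with dE2F1/dDP plus miR-11 and 0.945 with miR-11, per the authors' deposited table. A pfp is an estimate over the ranked list and can exceed 1.

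**Figure D1:**
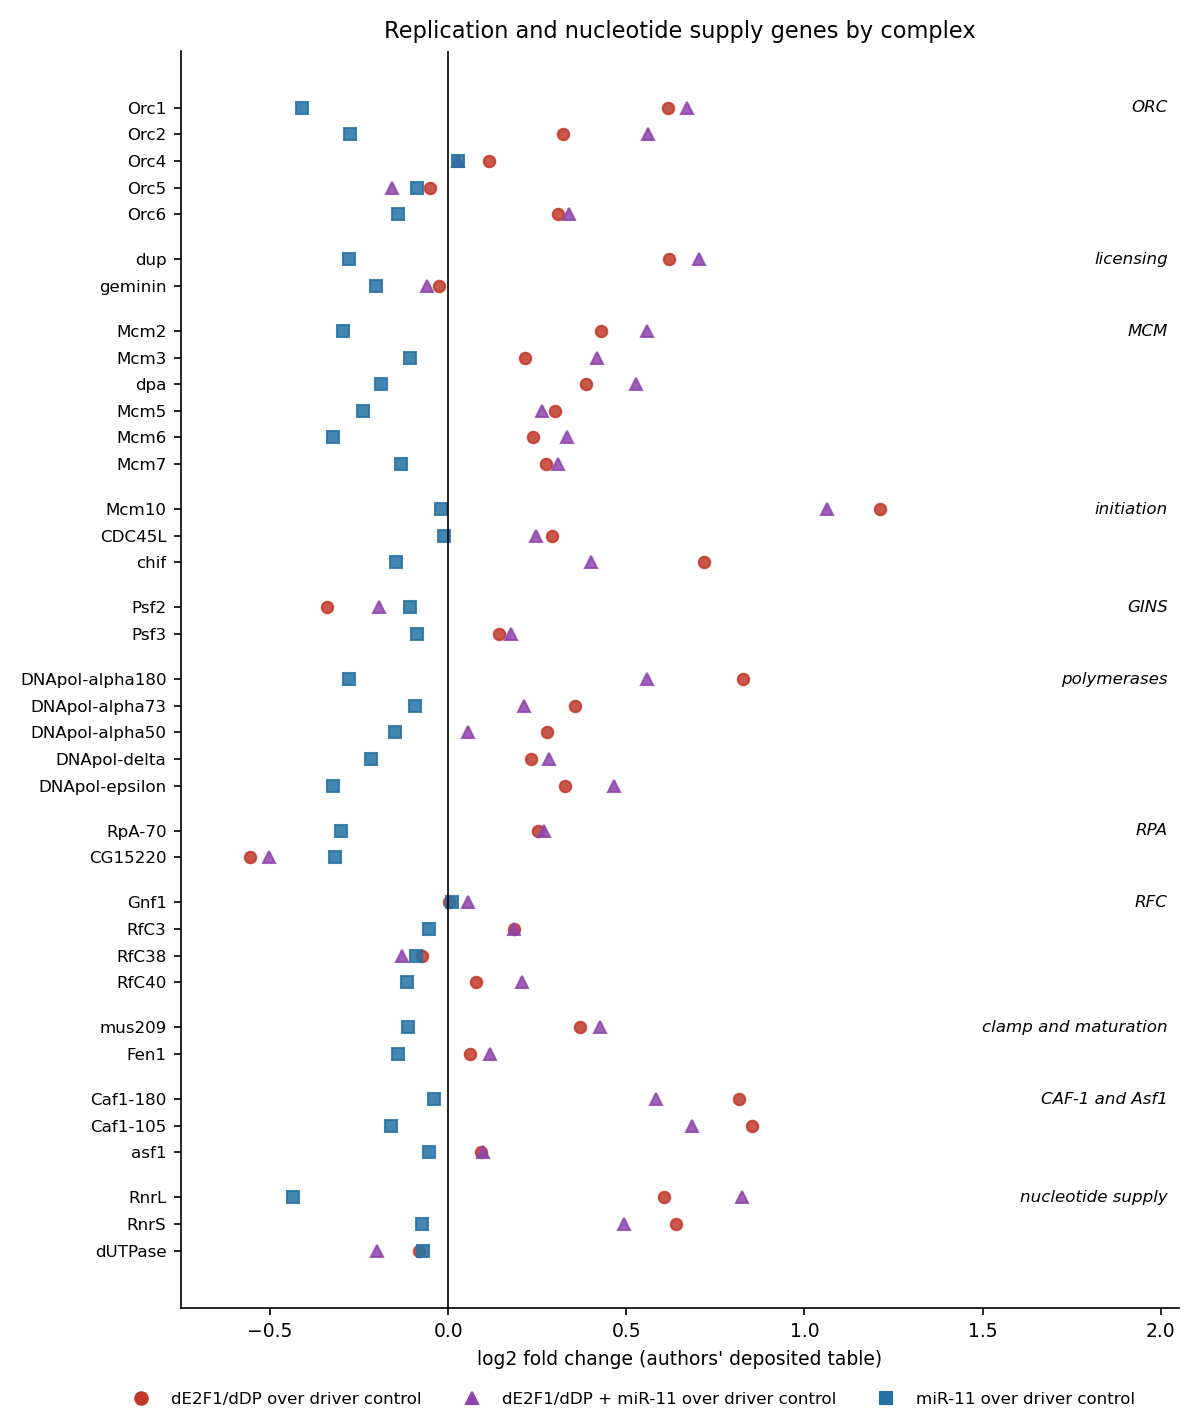
Log2 fold change over the driver control (x axis) of the 37 genes (y axis, ordered by complex) with dE2F1/dDP (circles), dE2F1/dDP plus miR-11 (triangles) and miR-11 (squares), from the authors' deposited table. Mcm10 lies farthest right at 1.21 and 1.06, CG15220 lies farthest left at -0.56 with dE2F1/dDP, and the miR-11 squares lie between -0.44 and 0.03.

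The table holds no value per array, and the probe sets of the array values carry no gene names. For 12781 of the 13281 rows (96.2%), exactly 1 probe set gave the same 3 fold changes, but a match by value is no annotation. Genes matched in this way were examined and then left out by choice, so no result given here ties a gene to a probe set. The spread over replicates is therefore not reported for a named gene, and the fold changes of single genes below are the authors' averages, with no SD or n. Over all 18769 probe sets fitted with limma, the SE of a comparison of 3 arrays with 3 arrays had a median of 0.169 on the log2 scale and quartiles of 0.124 and 0.280. At a Benjamini-Hochberg adjusted p under 0.05, limma called 0.0639% of them with dE2F1/dDP, 0.0906% with dE2F1/dDP plus miR-11, 0.155% with miR-11, 0.0373% between the 2 genotypes with dE2F1/dDP and 0.144% for the mean dE2F1/dDP effect, which sets the 6 arrays with dE2F1/dDP against the 6 without. Arrays of the same genotype stood apart. Of the variance over all probe sets, 63.1% lay on 1 principal component, the first, whose scores ran between -49.9 and 34.4 with dE2F1/dDP, -30.1 and 1.69 with dE2F1/dDP plus miR-11, -34.0 and 83.3 with miR-11, and -9.33 and 49.8 in the control. How much of the fold changes below comes with this spread was not tested.

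In the origin recognition complex, 4 of the 5 measured subunits lay above the control in both genotypes with dE2F1/dDP, at different distances. Orc1, an ATPase subunit of the complex, had a log2 fold change of 0.62 with dE2F1/dDP, 0.67 with dE2F1/dDP plus miR-11 and -0.41 with miR-11 in the authors' deposited table. Orc2, a core subunit, was at 0.32, 0.56 and -0.28 in the same order of genotypes in the authors' deposited table. Orc6, the subunit that helps to place the complex on DNA, was at 0.31, 0.34 and -0.14 in the authors' deposited table. Orc4 and Orc5, also core subunits, lay close to the control. Orc4 was at 0.11, 0.03 and 0.03, and Orc5 at -0.05, -0.16 and -0.09, in the authors' deposited table. For Orc1 with dE2F1/dDP plus miR-11, the authors' deposited table gave p = 0.0077 and pfp = 0.377, the fifth smallest p of the replication genes in that comparison.

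The licensing factor and its inhibitor differed. In the authors' deposited table, dup, the Drosophila Cdt1 that loads the helicase, was 1.54-fold the control with dE2F1/dDP (log2 0.62), 1.63-fold with dE2F1/dDP plus miR-11 (log2 0.70; p = 0.0075, pfp = 0.374) and at log2 -0.28 with miR-11. Its inhibitor geminin stood at log2 -0.03, -0.06 and -0.20 in the same order in the authors' deposited table. The difference between dup and geminin was not tested.

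All 6 subunits of the MCM helicase lay above the control in both genotypes with dE2F1/dDP and below it with miR-11. In the authors' deposited table the log2 fold changes ran from 0.22 (Mcm3) to 0.43 (Mcm2) with dE2F1/dDP. With dE2F1/dDP plus miR-11 they ran from 0.26 (Mcm5) to 0.56 (Mcm2) in the authors' deposited table, and with miR-11 from -0.32 (Mcm6) to -0.11 (Mcm3). These 6 proteins form a single ring that unwinds the DNA at the fork. The values of dpa, the Drosophila Mcm4, were 0.39 with dE2F1/dDP, 0.53 with dE2F1/dDP plus miR-11 and -0.19 with miR-11 in the authors' deposited table. Mcm5 was at 0.30, 0.26 and -0.24, Mcm6 at 0.24, 0.33 and -0.32 (p = 0.0956, pfp = 1.45 with miR-11), and Mcm7 at 0.27, 0.31 and -0.13 in the authors' deposited table. Mcm2 was at 0.43, 0.56 and -0.30, and Mcm3 at 0.22, 0.42 and -0.11, in the authors' deposited table. At an unadjusted p under 0.05, 0 of the 6 were higher with dE2F1/dDP in the authors' deposited table, beside 6.03% of all genes. With dE2F1/dDP plus miR-11 it was 3 of the 6, beside 7.4% of all genes. The medians of the 6 were 0.287 and 0.375 in the same order, and the difference between these 2 genotypes was not tested.

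Among the factors that activate the loaded helicase, Mcm10 had the largest fold change of the 37 genes. Mcm10, which binds the helicase and polymerase alpha, was 2.32-fold the control with dE2F1/dDP (log2 1.21; p = 3e-04, pfp = 0.143) in the authors' deposited table, higher than 99.8% of all genes. With dE2F1/dDP plus miR-11 it was 2.09-fold the control (log2 1.06; p = 2e-04, pfp = 0.0622) in the authors' deposited table, higher than 99.6% of all genes. With miR-11 alone Mcm10 stood at log2 -0.02 in the authors' deposited table, near the middle of all genes. The chif gene encodes a protein related to Dbf4, the activator of the kinase Cdc7, and was at log2 0.72 with dE2F1/dDP, 0.40 with dE2F1/dDP plus miR-11 and -0.15 with miR-11 in the authors' deposited table. CDC45L, now Cdc45, a part of the active helicase, was at 0.29, 0.25 and -0.01 in the authors' deposited table. GINS is the other part of the active helicase, and its 2 measured subunits lay on opposite sides of the control in both genotypes with dE2F1/dDP. Psf3 was at log2 0.14, 0.18 and -0.09, and Psf2 at -0.34, -0.19 and -0.11, in the authors' deposited table.

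The 5 measured polymerase genes of the chosen list lay above the control in both genotypes with dE2F1/dDP. This does not hold for every polymerase gene with a row. The polymerase delta subunit CG12018, counted below with the genes outside that list, was under the control in both. It was at log2 -0.18 with dE2F1/dDP, -0.13 with dE2F1/dDP plus miR-11 and 0.16 with miR-11 in the authors' deposited table. DNApol-alpha180, now PolA1, is the catalytic subunit of polymerase alpha, which starts each new strand. It was 1.77-fold the control with dE2F1/dDP (log2 0.83; p = 0.0067, pfp = 0.478), 1.47-fold with dE2F1/dDP plus miR-11 (log2 0.56) and at log2 -0.28 with miR-11 (p = 0.0611, pfp = 1.497) in the authors' deposited table. The accessory subunit DNApol-alpha73, now PolA2, was at log2 0.36, 0.21 and -0.09, and the primase subunit DNApol-alpha50, now Prim1, at 0.28, 0.06 and -0.15, in the authors' deposited table. The catalytic subunits of the polymerases that extend the strands also lay above the control in these genotypes. DNApol-delta, now PolD1, was at log2 0.23, 0.28 and -0.22, and DNApol-epsilon at 0.33, 0.47 and -0.32 (p = 0.0563, pfp = 1.51 with miR-11), in the authors' deposited table.

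Replication protein A coats single-stranded DNA, and its 2 measured subunits lay on opposite sides of the control with dE2F1/dDP. The large subunit RpA-70, now RPA1, was at log2 0.25 with dE2F1/dDP, 0.27 with dE2F1/dDP plus miR-11 and -0.30 with miR-11 in the authors' deposited table. CG15220, listed as RPA3 in RefSeq, was below the control in all 3 genotypes, at -0.56 with dE2F1/dDP (p = 0.0146, pfp = 0.570), -0.50 with dE2F1/dDP plus miR-11 and -0.32 with miR-11 (p = 0.0268, pfp = 1.37) in the authors' deposited table. It was the lowest of the 37 genes in the first 2 comparisons.

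The 4 measured genes of the clamp loader RFC lay close to the control, within 0.21 of it on the log2 scale in all 3 genotypes. Gnf1, its large subunit, was at log2 0.00, 0.06 and 0.01 with dE2F1/dDP, dE2F1/dDP plus miR-11 and miR-11 in the authors' deposited table. RfC3 was at 0.18, 0.18 and -0.05, RfC38 at -0.07, -0.13 and -0.09, and RfC40, now RfC4, at 0.08, 0.21 and -0.12 in the authors' deposited table. The clamp that this complex loads is PCNA, encoded by mus209, which was at log2 0.37 with dE2F1/dDP, 0.43 with dE2F1/dDP plus miR-11 and -0.11 with miR-11 in the authors' deposited table. Fen1, the flap endonuclease that trims Okazaki fragments, was at 0.06, 0.12 and -0.14 in the authors' deposited table.

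The large subunits of CAF-1, which deposits new histones H3 and H4 behind the fork, were among the highest of the 37 genes. Caf1-105 was 1.81-fold the control with dE2F1/dDP (log2 0.85; p = 0.0084, pfp = 0.496), 1.61-fold with dE2F1/dDP plus miR-11 (log2 0.68; p = 0.0071, pfp = 0.375) and at log2 -0.16 with miR-11 in the authors' deposited table. Caf1-180 was 1.76-fold the control with dE2F1/dDP (log2 0.82; p = 0.0098, pfp = 0.485), at log2 0.58 with dE2F1/dDP plus miR-11 and at -0.04 with miR-11 in the authors' deposited table. The chaperone asf1, which hands histones to CAF-1, stood at log2 0.09, 0.10 and -0.05 in the authors' deposited table.

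Nucleotide supply split between the enzyme that makes deoxynucleotides and the one that removes dUTP. RnrL, the large subunit of ribonucleotide reductase, was 1.52-fold the control with dE2F1/dDP (log2 0.61), 1.77-fold with dE2F1/dDP plus miR-11 (log2 0.82; p = 0.0023, pfp = 0.246) and at log2 -0.44 with miR-11 (p = 0.0560, pfp = 1.51) in the authors' deposited table. That was the lowest value of the 37 genes with miR-11. The small subunit RnrS was at log2 0.64, 0.49 and -0.07 in the authors' deposited table. The dUTPase gene was at -0.08, -0.20 and -0.07 in the authors' deposited table.

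Set against all genes, the replication genes were spread over a wide range of ranks. With dE2F1/dDP, 9 of 37 lay among the top 10% of all genes by fold change in the authors' deposited table, and 26 of 37 among the top 25%. With dE2F1/dDP plus miR-11, 15 of 37 lay among the top 10% and 26 of 37 among the top 25% in the authors' deposited table. Above a log2 fold change of 0.5 were 9 of 37 with dE2F1/dDP, beside 7.54% of all genes, and 10 of 37 with dE2F1/dDP plus miR-11, beside 5.7%, in the authors' deposited table. With miR-11 it was 0 of 37, beside 2.26%, in the authors' deposited table. In all, 7 genes passed 0.5 in both genotypes. The share of all genes that did so was not counted, and the comparisons share the driver control, so this overlap is a description only. The 6 genes below the control in both genotypes, namely CG15220, Psf2, dUTPase, RfC38, Orc5 and geminin, came from 6 different complexes. With miR-11, 0 of 37 lay among the top 25% in the authors' deposited table. Among the bottom 25% were 19 of 37, and among the bottom 10% were 10 of 37.

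**Figure D2:**
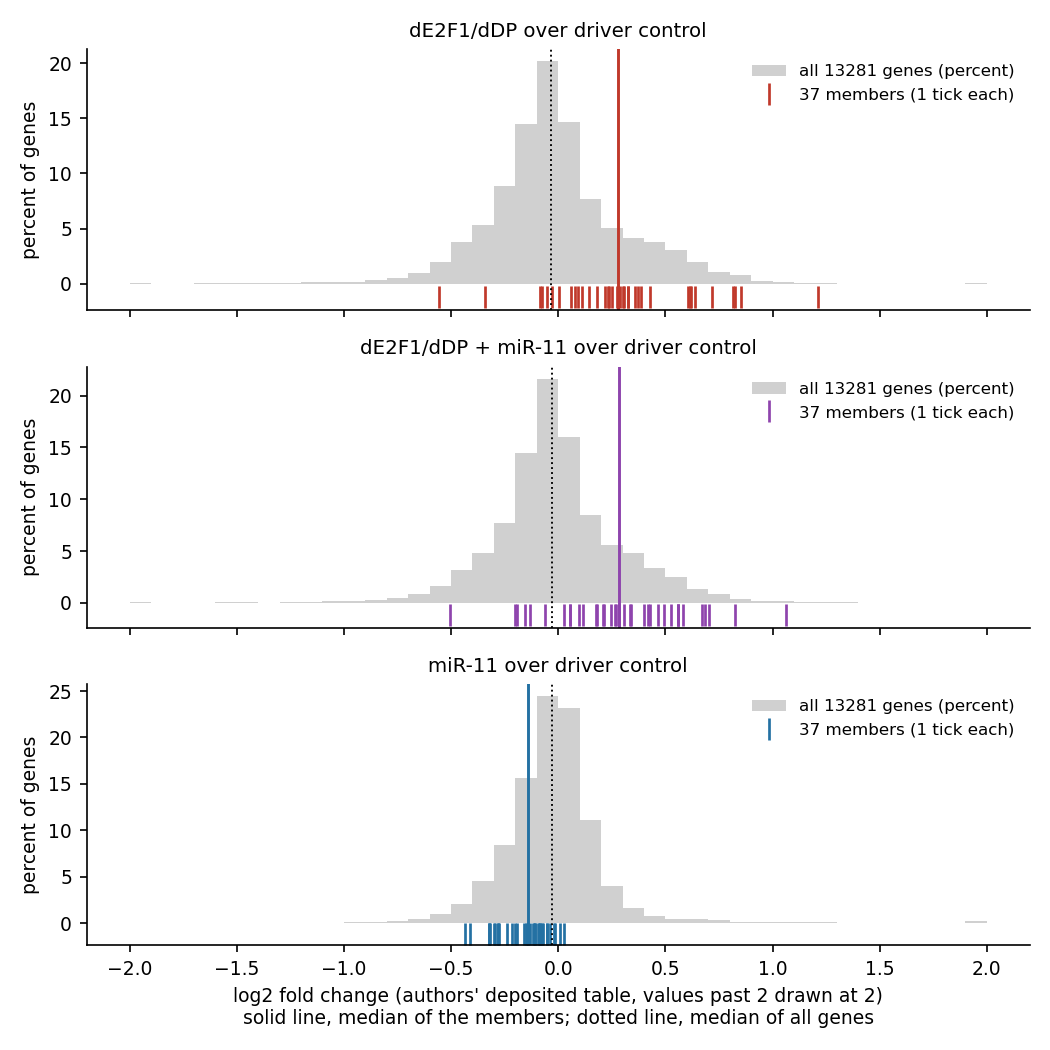
Share of all 13281 genes (grey bars, percent, y axis) by log2 fold change over the driver control (x axis, 0.1 per bar), with a tick for each of the 37 genes, in the authors' deposited table. The solid line is the median of the 37 genes, 0.28, 0.28 and -0.14 from top to bottom, and the dotted line that of all genes, -0.03 in each panel.

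To compare dE2F1/dDP plus miR-11 with dE2F1/dDP, the fold changes of those 2 genotypes were subtracted, so that the control cancels. Tissue markers also differed between them. The median of the salivary gland markers was 0.86 with dE2F1/dDP and -1.75 with dE2F1/dDP plus miR-11, and that of the muscle markers 0.17 and 0.82. The part of tissue content in the subtracted values was not tested. The difference, dE2F1/dDP plus miR-11 minus dE2F1/dDP, has no test per gene. In the authors' deposited table it was above 0 for 21 of 37 genes, beside 48.8% of all genes, and its median was 0.03 against 0.00 over all genes. It lay within 0.1 of 0 for 19 of 37 genes in the authors' deposited table. The share of all genes within 0.1 was not counted, so this number has nothing to be set against. The largest differences upward were 0.24 for Orc2, 0.22 for RnrL and 0.20 for Mcm3, from the authors' deposited table. Those downward were -0.32 for chif, -0.27 for DNApol-alpha180, -0.23 for Caf1-180 and -0.22 for DNApol-alpha50, from the authors' deposited table. The 3 polymerase alpha genes and both CAF-1 genes lay below 0, and 5 of the 6 MCM genes above it. All of these differences are smaller than 0.5 on the log2 scale. Over the unnamed probe sets, the SE of this comparison had a median of 0.169, and whether the complexes differ was not tested.

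**Figure D3:**
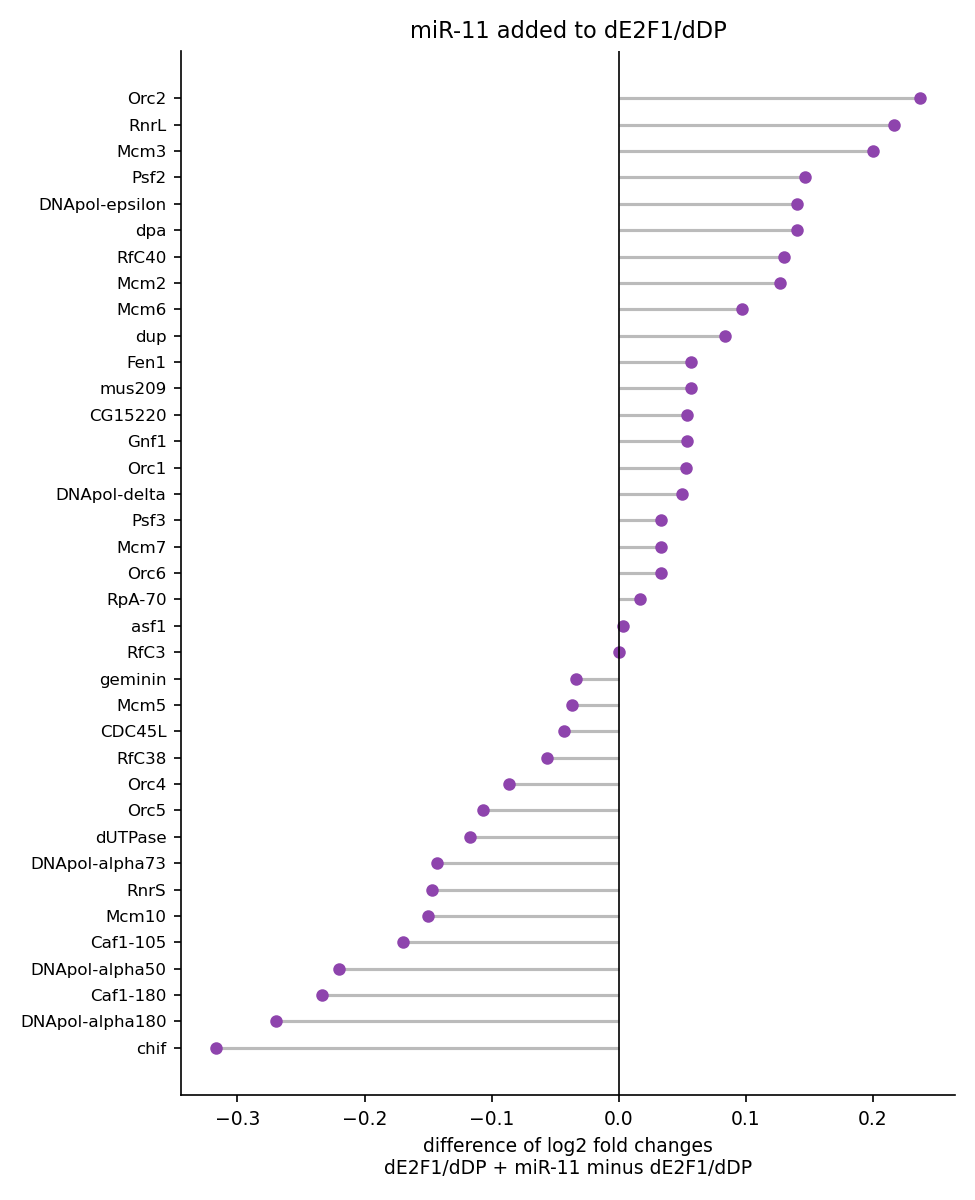
Difference of the log2 fold changes, dE2F1/dDP plus miR-11 minus dE2F1/dDP (x axis), for each of the 37 genes (y axis), from the authors' deposited table. The values run from -0.32 for chif to 0.24 for Orc2.

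Genes next to these in the cell cycle were counted in the same way. Of 9 G1/S regulators, 9, 9 and 1 were above 0 with dE2F1/dDP, dE2F1/dDP plus miR-11 and miR-11 in the authors' deposited table. Their medians were 0.46, 0.38 and -0.18, beside 0.28, 0.28 and -0.14 for the 37 genes. CycE, the cyclin that starts S phase, had a log2 fold change of 0.99, with pfp = 0.281, and 1.04, with pfp = 0.0668, in the first 2 of these. Of 18 G2 and mitosis genes, 15, 16 and 2 were above 0 in the authors' deposited table, with medians of 0.293, 0.375 and -0.273. The shift was thus not particular to the replication genes. Another 30 genes of replication and nucleotide synthesis, chosen outside the 37, were also counted. They had 16, 17 and 6 above 0 and medians of 0.11, 0.07 and -0.15 in the authors' deposited table. Among them ade3 had 2 rows, of which only 1 was counted, at log2 0.15, 0.06 and -0.13. The other row was at 0.01, 0.46 and -0.17, and these medians depend on which of the 2 was counted. None of the genes in these lists was called.

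The transgenes and the tissue were looked at beside these values. Dp, the gene of dDP, had a log2 fold change of 2.85 with dE2F1/dDP, 2.73 with dE2F1/dDP plus miR-11 and -0.29 with miR-11 in the authors' deposited table, called higher in the first 2. E2f, the gene of dE2F1, was at 0.34, 0.33 and 0.04 and was not called in the authors' deposited table. All 8 eye disc markers (ey, toy, eya, so, dac, gl, elav and ato) were above 0 in both genotypes with dE2F1/dDP, with medians of 0.48 and 0.42, and 4 of 8 were above 0 with miR-11, in the authors' deposited table. Of 7 salivary gland markers, 5, 0 and 7 were above 0 with dE2F1/dDP, dE2F1/dDP plus miR-11 and miR-11 in the authors' deposited table, with medians of 0.86, -1.75 and 1.60. Called among them were 2 higher (Sgs3 and Sgs4) with dE2F1/dDP, 5 lower (Sgs5, Sgs7, Sgs8, ng1 and ng3) with dE2F1/dDP plus miR-11 and 2 higher (Sgs3 and Sgs4) with miR-11 in the authors' deposited table. Of 6 muscle markers, 6, 6 and 5 were above 0, with medians of 0.17, 0.82 and 0.10, in the authors' deposited table. With dE2F1/dDP plus miR-11, all 6 muscle markers were higher at an unadjusted p under 0.05 and 2 were called, Mhc at log2 1.33 and Prm at 1.36, in the authors' deposited table. Of 6 fat body markers, 2, 1 and 6 were above 0, with medians of -0.39, -0.30 and 1.20, in the authors' deposited table, and Lsp1gamma was called higher with miR-11 (log2 1.87). Of 5 hemocyte markers, 3, 2 and 3 were above 0, with medians of 0.22, -0.04 and 0.38, in the authors' deposited table. The hemocyte marker nimC1 was called higher with dE2F1/dDP plus miR-11 (log2 1.31) and with miR-11 (log2 1.54) in the authors' deposited table. The part of other tissues in the fold changes of the replication genes was not tested.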

How the data were processed

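The authors' deposited table gives, per the file headers, the average log2 fold change and p-values of 13281 genes for 3 genotypes over the control, by rank product, and the pfp, a score that the authors deposited as the estimated share of false positives. The authors' deposited values per probe set are on a log2 scale for 12 arrays. The R package affy is named in the submitters' processing notes, with settings not given in the sources used here. RNA was 100 ng per array, per the labels.

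Probe sets (18769, after leaving out 183 control probe sets) were fitted with limma 3.58.1 in R 4.3.3 over all 12 arrays, adjusted by Benjamini-Hochberg and called at 0.05. No file used here names the probe sets. Genes were also tied to probe sets by equal fold changes, and array values and limma fits of the 37 genes were examined that way. They are left out because such a match is no annotation, so the array fits given describe unnamed probe sets. Promoter motifs were not analysed here. The number of arrays limits the precision.

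Every gene of the list was named. P and pfp were given for the 5 smallest p in each comparison. The genes and the other lists were chosen with earlier results of these data known. RefSeq (Release 6) was used only for current names and matched 36 of 37. The labels give all genotypes the replicate numbers 1 to 3. Deviations from the genotype means correlated above 0.1 in 6 of the 18 pairs of arrays with a common number. The correlations ran from -0.66 (miR-11 and control, replicate 1) to 0.84 (miR-11 and dE2F1/dDP, replicate 3). Arrays with a common number were not treated as paired.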

Additional observations from a re-analysis of the deposited data

How the results depend on the processing

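Counts of replication genes above 0 in the authors' deposited table were also taken against the median of all genes, giving 32 and 31 of 37 with dE2F1/dDP and with dE2F1/dDP plus miR-11, 4 with miR-11, against 2 above 0, and 22 for the difference of the 2 genotypes with dE2F1/dDP, a choice made after seeing the data. At a pfp under 0.2, 1 gene (Mcm10) passed with dE2F1/dDP, beside 0.248% of all genes, and 1 (Mcm10) with dE2F1/dDP plus miR-11, beside 0.73%. At an unadjusted p under 0.05, 10, 15 and 1 genes passed in either direction with dE2F1/dDP, dE2F1/dDP plus miR-11 and miR-11. Of all genes, 6.03%, 7.4% and 3.52% passed above the control in the same order, and 6.85%, 7.08% and 3.41% below it. A recount of these genes without each array would need the match of table rows to probe sets by value, and is not reported here.

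Over the unnamed probe sets, limma called 12 with dE2F1/dDP, 17 with dE2F1/dDP plus miR-11, 29 with miR-11, 7 for dE2F1/dDP plus miR-11 against dE2F1/dDP and 27 for the mean dE2F1/dDP effect. Leaving out 1 array at a time gave 5 to 19, 9 to 18, 14 to 45, 4 to 7 and 11 to 58. The highest counts for miR-11 and for the mean effect came without miR-11 replicate 1, and that for dE2F1/dDP without miR-11 replicate 3. The replicate number as a block gave 7 with dE2F1/dDP and moved no other count by over 1.5 times. Only the 6 arrays of the 2 genotypes gave 4 with dE2F1/dDP, 10 with miR-11 and 4 for dE2F1/dDP plus miR-11 against dE2F1/dDP. Array weights gave 1533, 98, 494, 402 and 6210 in the order above. They were estimated gene by gene, a choice made after seeing the data because the default estimation stopped without converging. The cause was not tested.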
